A study of Mus musculus with 12 samples.

Results

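Genes of the machinery that transcribes, splices and translates RNA were taken from the expression table by symbol. The rule read no measured value, but its prefixes were chosen with earlier results of these data known. A gene was a member if its symbol began with a prefix of the core transcription machinery (Polr, Taf, Med, Gtf), of splicing factors (Snrp, Sf3, Srsf, Sfrs, Hnrn, Hnrp, Lsm, Prpf), of RNA binding motif proteins (Rbm), of RNA helicases (Ddx, Dhx), of ribosomal RNA processing and the exosome (Exosc, Nop, Utp) or of translation factors (Eif, Eef). In this way 67 of 10245 gene symbols were members: 21 of the transcription machinery, 16 splicing factors, 6 Rbm proteins, 6 RNA helicases, 4 of ribosomal RNA processing and 14 translation factors. No Srsf or Exosc gene was among them.

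RNA-Seq was performed on dorsal CA1, a hippocampal field of excitatory pyramidal neurons, of 6 Control and 6 Tip60 cKO mice, with CA1 of both hemispheres of a mouse pooled into 1 library. Libraries are numbered 1 to 6 within a group in record order, and a number is a name that pairs no mice. By the labels all mice were male C57BL/6N littermates. They carried floxed Tip60 (Kat5) alleles, received tamoxifen at 2 months of age and were killed 10 days after the last injection. Tip60 cKO mice also carried CaMKCreERT2, a tamoxifen-inducible Cre recombinase driven in excitatory neurons of the forebrain, and Control mice carried no Cre, so that loss of Tip60 and effects of Cre cannot be told apart. Glia, neuronal progenitors and other cells without Cre activity keep Tip60, and Kat5 was not analysed here.

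Most of these genes are needed in every cell. RNA polymerase II is brought to messenger RNA genes by general transcription factors and by Mediator, a large complex that links it to gene-specific regulators, while polymerases I and III make ribosomal, transfer and other small RNAs. Introns are then removed by the spliceosome, which is built from small nuclear ribonucleoproteins (snRNPs) and many associated proteins, and the mature message is read by ribosomes with the help of initiation and elongation factors. In neurons, translation control by the initiation factors eIF2 and eIF2B is known for its part in lasting memory. Tip60 is a lysine acetyltransferase of chromatin and so has its place at the first of these steps.

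Values are FPKM, fragments scaled by transcript length and by the number of mapped reads, so that levels of genes can be set side by side per length. A gene was tested if its mean over the 12 libraries reached 0.5 FPKM, which held for 59 of the 67 members and for 2416 genes in all. Changes are given as log2 differences of FPKM + 1, Tip60 cKO minus Control, a scale that understates the change of low genes. A gene is said to have risen or fallen if limma gave an adjusted p below 0.05 (Benjamini-Hochberg over the 2416 genes) and FPKM + 1 differed by more than 1.2-fold. Bulk tissue was measured, so fewer cells of a type and less RNA per cell cannot be told apart.

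Facts of the libraries that touch these genes are as follows. Depth, estimated from the smallest values, was 31.4 to 37.9 M reads (M, mega) in Control and 31.7 to 35.9 M reads in Tip60 cKO libraries. The CA1 marker Pou3f1, the only 1 of 8 CA1 markers listed, was at 25.8 to 31.7 FPKM in Control and 48.1 to 62.5 FPKM in Tip60 cKO, and none of the 3 excitatory neuron and 6 astrocyte markers were analysed here. Interneuron markers differed with genotype: 3 of 7 were listed (Slc32a1, Sst, Npy), and all 3 rose. Their summed level was 376 to 439 FPKM in Control and 754 to 819 FPKM in Tip60 cKO. Sst made up most of it, at 298 to 347 against 583 to 661 FPKM. Npy was at 57.0 to 72.8 against 132 to 152 FPKM, and Slc32a1 at 18.5 to 20.2 against 22.3 to 26.8 FPKM. Of 5 of 10 microglial markers listed 3 rose (C1qa, C1qc and Tyrobp), and the 5 summed to 102 to 119 against 114 to 149 FPKM. The other 2 did not rise: Cx3cr1 was at 11.7 to 14.3 against 11.1 to 13.8 FPKM, and Tmem119 at 8.97 to 10.3 against 7.23 to 9.26 FPKM. The 2 of 8 oligodendrocyte markers listed summed to 59.9 to 76.2 against 72.3 to 83.4 FPKM. The endothelial marker Cldn5 was at 14.4 to 17.4 against 15.2 to 18.2 FPKM. The choroid plexus marker Ttr lay at 0.268 to 0.689 FPKM in Control and reached 201 FPKM in 1 Tip60 cKO library (number 1), and the 2 of 3 dentate granule markers listed summed to 1.25 to 10.8 against 0.846 to 7.26 FPKM. No listed marker was at 0 in all libraries, and the part of these cell types in the results was not tested. Control library 3 stood apart most often, with 103 of the 416 values over all tested genes that lay far from their group, and without it 17 members rose.

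Promoter sequences are shown for 4 members: Gtf3c5 with the largest rise, Med6 and Med9 because among members with a window they alone held the E2F letters named below, and Prpf8 with the largest difference in the other direction. Each is the stretch of 250 bases before the RefSeq gene start (GRCm38.p6), 5′ to 3′ on the strand of the gene, with matches to the searched motifs in capitals.
Gtf3c5, chr2:28583280-28583529, minus strand: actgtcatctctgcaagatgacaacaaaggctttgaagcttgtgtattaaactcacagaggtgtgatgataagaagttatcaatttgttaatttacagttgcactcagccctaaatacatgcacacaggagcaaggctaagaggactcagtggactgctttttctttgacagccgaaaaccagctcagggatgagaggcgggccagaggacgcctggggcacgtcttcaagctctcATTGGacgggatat
Med6, chr12:81595009-81595258, minus strand: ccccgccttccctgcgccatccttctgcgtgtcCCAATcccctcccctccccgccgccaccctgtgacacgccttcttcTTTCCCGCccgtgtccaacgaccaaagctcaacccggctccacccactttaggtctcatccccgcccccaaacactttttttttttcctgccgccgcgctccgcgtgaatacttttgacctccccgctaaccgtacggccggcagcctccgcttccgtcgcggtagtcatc
Med9, chr11:59947964-59948213, plus strand: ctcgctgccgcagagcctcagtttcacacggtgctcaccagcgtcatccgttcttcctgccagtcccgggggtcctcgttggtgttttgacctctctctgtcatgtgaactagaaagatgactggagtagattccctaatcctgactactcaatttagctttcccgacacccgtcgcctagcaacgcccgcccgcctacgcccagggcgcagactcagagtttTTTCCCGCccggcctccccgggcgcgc
Prpf8, chr11:75486527-75486776, plus strand: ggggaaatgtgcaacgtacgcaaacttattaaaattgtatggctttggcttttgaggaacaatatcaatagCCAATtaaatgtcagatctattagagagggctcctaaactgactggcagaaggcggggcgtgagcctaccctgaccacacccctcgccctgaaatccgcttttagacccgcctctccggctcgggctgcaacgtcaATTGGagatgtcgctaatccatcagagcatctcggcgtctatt

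In Gtf3c5 the capitals mark a CCAAT box on the reverse strand, 14 bases before the start. Med6 holds the E2F letters 171 bases and a CCAAT box 217 bases before the start, and Med9 holds the E2F letters 27 bases before it. In Prpf8 CCAAT boxes lie 179 and 43 bases before the start, the nearer on the reverse strand. What these windows share with those of other genes is described after the values.

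Of the 59 tested members, 18 rose and none fell in Tip60 cKO CA1. Over all tested genes 19.9% rose and 6.5% fell. By adjusted p alone, 34 members were higher and 2 lower, against 40.2% and 14.4% of all tested genes. The count of lower members by adjusted p depended on scaling: 23 were higher and 12 lower after median-ratio scaling (26.6% and 25.9% of all tested genes), and 31 higher and 7 lower after upper-quartile scaling (32.0% and 21.7%). In 28 members the lowest Tip60 cKO value exceeded the highest Control value, and in none was the reverse seen, against 25.2% and 8.32% of all tested genes. The median change of the members was 0.19 on the log2 scale, with a range from -0.12 to 0.65, and that of all tested genes was 0.09. Rises outnumbered falls over the whole table too, by 480 against 157 genes. After median-ratio scaling, which brings the libraries to a common middle level, 8 members rose and none fell, while 285 genes (11.8%) rose and 278 (11.5%) fell. After upper-quartile scaling 12 members rose and none fell (14.0% and 9.4% of all tested genes), and with a pseudocount of 0.1 in place of 1 the counts were 21 and 0 (27.4% and 7.95%).

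**Figure D1:**
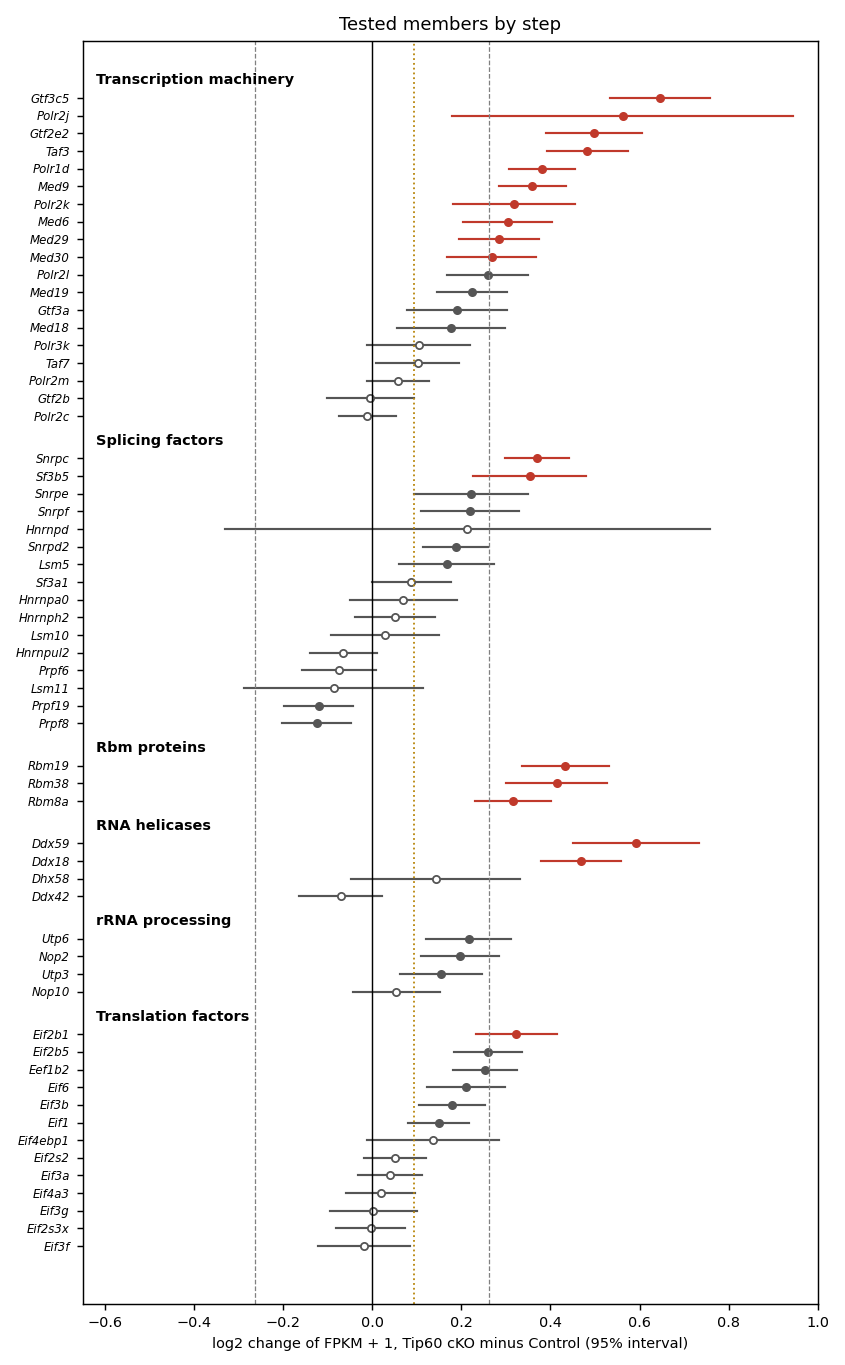
Log2 change of FPKM + 1 with its 95% interval for the 59 tested members, ordered within each step. Red marks genes that rose, filled points an adjusted p below 0.05, dashed lines the 1.2-fold limits and the dotted line the median of all tested genes at 0.09; 10 of 19 genes of the transcription machinery are red and no gene lies beyond the left dashed line.

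The transcription machinery held most of the rises. Of its 19 tested members 10 rose (52.6%, against 19.9% of all tested genes). By adjusted p alone 14 were higher and none lower, against 40.2% and 14.4% of all tested genes. In 12 the lowest Tip60 cKO value exceeded the highest Control value, against 25.2% of all tested genes. The median change was 0.27. After median-ratio scaling 4 of the 10 rose (Gtf3c5, Polr2j, Gtf2e2 and Taf3), and after upper-quartile scaling 6 (11.8% and 14.0% of all tested genes). By adjusted p alone 12 were higher and 2 lower after median-ratio scaling (26.6% and 25.9% of all tested genes), and 13 and 1 after upper-quartile scaling (32.0% and 21.7%).

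Of 4 tested general transcription factors and 2 tested TFIID subunits, which place polymerases on promoters, 2 and 1 rose. The share over all tested genes was 19.9%. Gtf3c5, a subunit of TFIIIC, which recognises the internal promoters of polymerase III genes, was at 4.11, 4.87 and 5.24 FPKM (lowest, median and highest) in Control and at 7.58, 7.98 and 9.05 FPKM in Tip60 cKO. The groups did not overlap, and the mean went 1.68-fold up, from 4.83 ± 0.404 FPKM in Control to 8.11 ± 0.505 FPKM (SD, n = 6 each). On the log2 scale it rose by 0.65 ± 0.0528 (SE, limma adjusted p = 1.08e-07). Gtf2e2, a subunit of TFIIE that helps open the promoter for polymerase II, had 5.93, 6.5 and 7.46 FPKM in Control and 8.91, 9.87 and 10.2 FPKM in Tip60 cKO. It rose in all 6 Tip60 cKO libraries past the highest Control value, a log2 difference of 0.50 ± 0.0507 (SE, limma adjusted p = 1.05e-06).

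Taf3, a subunit of TFIID that reads a methyl mark on histone H3 at active promoters, was at 2.57, 2.91 and 3.11 FPKM in Control and at 4.24, 4.34 and 4.59 FPKM in Tip60 cKO. The spread within each group was small beside the gap, and it rose 1.53-fold (log2 change 0.48 ± 0.0422, SE, limma adjusted p = 2.31e-07). Its TFIID partner Taf7, known as an inhibitor of the acetyltransferase activity of that complex, lay at 1.28 to 1.5 FPKM in Control and 1.44 to 1.74 FPKM in Tip60 cKO, and the groups overlapped (log2 change 0.10, limma adjusted p = 0.0608). Gtf3a, which is TFIIIA and directs polymerase III to 5S ribosomal RNA genes, was at 6.36 ± 0.337 and 7.41 ± 0.666 FPKM and passed by adjusted p alone (0.00664). Gtf2b, the factor TFIIB that bridges promoter and polymerase II, was at 18.2 ± 1.33 and 18.1 ± 0.549 FPKM, with a log2 difference close to 0 whose 95% interval ran from -0.10 to 0.09. After median-ratio scaling Gtf2b was lower by adjusted p alone (log2 change -0.118, limma adjusted p = 0.0155).

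Among 7 polymerase subunits 3 rose (42.9%, against 19.9% of all tested genes). After median-ratio scaling 1 of the 7 rose, and after upper-quartile scaling 2 (11.8% and 14.0% of all tested genes). Polr1d, shared by polymerases I and III and the most abundant transcription member, was at 43.2, 43.7 and 46.6 FPKM in Control and at 53.5, 58.5 and 60.1 FPKM in Tip60 cKO. The groups did not overlap and the level rose 1.31-fold (log2 change 0.38 ± 0.0346, SE, limma adjusted p = 3.39e-07). After median-ratio scaling its change of 0.26 stayed just short of the 1.2-fold limit.

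Polr2j, a polymerase II subunit, had 31.4, 38.8 and 42.7 FPKM in Control and 47.1, 51.2 and 105 FPKM in Tip60 cKO. All Tip60 cKO values were above all Control values, but the highest, in library 6, was 2.03 times the next. With all libraries the log2 change was 0.56 ± 0.175 (SE, limma adjusted p = 0.0169), and without that library it was 0.39 (0.000148). Its exons overlap those of Lrwd1 on the other strand. The libraries were made with a kit that does not mark strand, so reads of the pair cannot be told apart.

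Polr2k and Polr2l are small subunits common to all nuclear polymerases. Polr2k rose from 24.6 ± 2.34 to 30.8 ± 2.51 FPKM (SD, n = 6 each; limma adjusted p = 0.000708). Polr2l, at 13.9 to 16 FPKM in Control and 16.2 to 18.8 FPKM in Tip60 cKO, did not overlap between the groups and stopped just inside the fold limit with a log2 change of 0.26 (adjusted p = 0.000131 by limma). The remaining subunits differed little without further scaling: Polr2c of polymerase II was at 20.1 ± 0.578 and 20.0 ± 0.419 FPKM, with an interval from -0.08 to 0.05 on the log2 scale. Polr2c was lower by adjusted p alone under both other scalings, at -0.126 after median-ratio and -0.0827 after upper-quartile scaling. Polr3k, of polymerase III, was at 10.8 ± 0.985 and 11.6 ± 0.639 FPKM, and Polr2m, whose product Gdown1 binds polymerase II and makes it depend on Mediator, was at 44.0 ± 1.29 and 45.8 ± 1.69 FPKM. For both the log2 difference turned negative after median-ratio scaling, and for Polr2m also after upper-quartile scaling.

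All 6 tested Mediator subunits were higher by adjusted p, and 4 of them rose (40.2% and 19.9% of all tested genes). Their median change was 0.28, and all 6 differences stayed positive under both other scalings, where 0 (median-ratio) and 1 (upper-quartile) passed the fold limit and 5 were higher by adjusted p. Med9, of the middle module, was at 10.0, 10.3 and 11.0 FPKM in Control and 12.8, 13.6 and 14.2 FPKM in Tip60 cKO. The gap between the groups exceeded the range within either, and the log2 change was 0.36 ± 0.0354 (SE, limma adjusted p = 7.78e-07).

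Med6, a head module subunit needed for activated transcription in yeast, had 11.4, 12.4 and 13.2 FPKM in Control and 14.6, 15.3 and 17.8 FPKM in Tip60 cKO, again without overlap (log2 change 0.30 ± 0.0471, SE, limma adjusted p = 7.05e-05). Med29 rose from 5.34 ± 0.249 to 6.73 ± 0.350 FPKM and Med30 from 10.3 ± 0.659 to 12.6 ± 0.685 FPKM (SD, n = 6 each). Both are subunits found in animals, and the rise of Med30 (log2 change 0.27) lay so close to the limit that leaving out Control library 3 gave 0.24, and leaving out Tip60 cKO library 1, 3 or 5 gave 0.26, 0.26 or 0.25, all inside it. Med19, through which Mediator meets the neuronal gene repressor REST, was at 9.83 ± 0.367 and 11.6 ± 0.509 FPKM with no overlap, and Med18 at 1.36 ± 0.159 and 1.66 ± 0.178 FPKM with overlap.

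**Figure D2:**
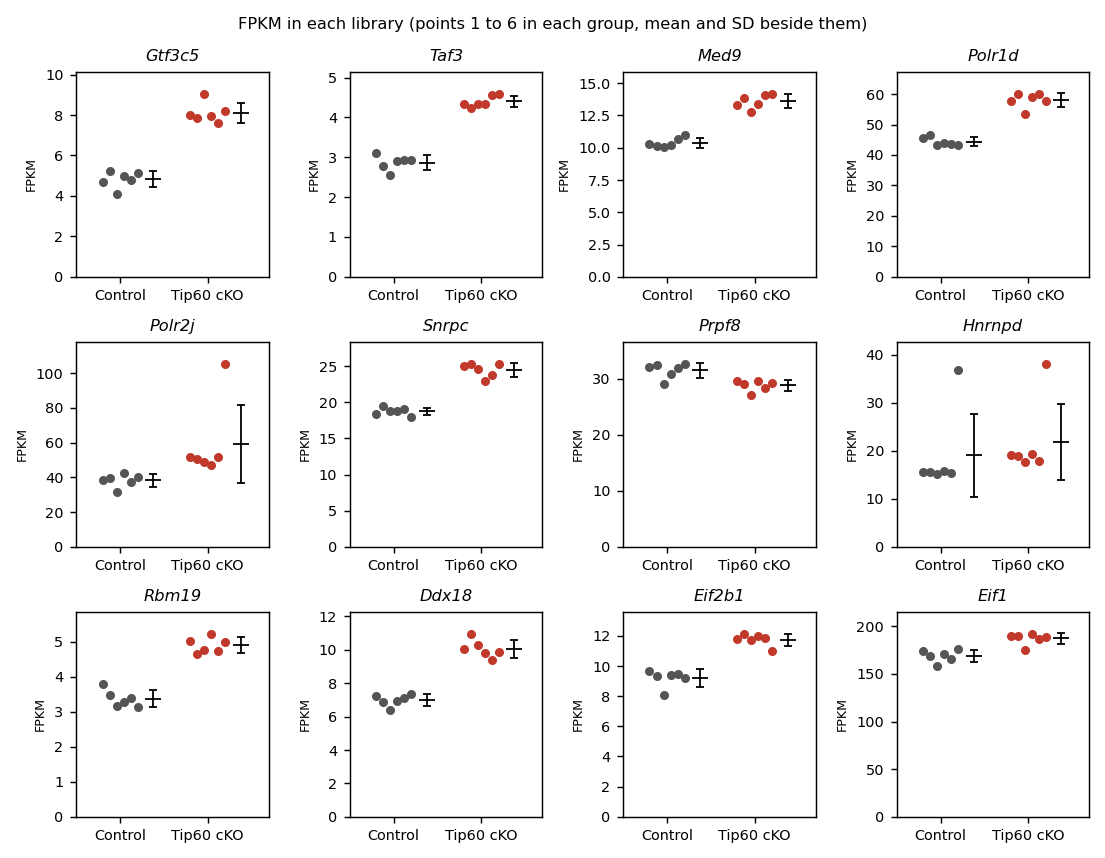
FPKM in each library for 12 members, Control in grey and Tip60 cKO in red, libraries 1 to 6 from left to right, with the group mean and SD beside the points on axes that start at 0. Single libraries stand apart for Polr2j (105 FPKM in Tip60 cKO library 6) and Hnrnpd (36.8 and 38.1 FPKM in both libraries numbered 6), while Gtf3c5, Taf3, Med9 and Snrpc form separate groups and Prpf8 overlaps.

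Of 16 tested splicing factors 2 rose (12.5%, against 19.9% of all tested genes). By adjusted p alone 6 were higher and 2 lower, against 40.2% and 14.4% of all tested genes. The median change of 0.08 was below that of all tested genes. After median-ratio scaling none rose and the median was -0.04, and after upper-quartile scaling 2 rose and none fell. By adjusted p alone 2 were higher and 4 lower after median-ratio scaling (26.6% and 25.9% of all tested genes), and 5 and 4 after upper-quartile scaling (32.0% and 21.7%).

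The 4 Snrp members, proteins of the U1 snRNP or of the snRNP core, were all higher by adjusted p, also after upper-quartile scaling. The shares over all tested genes were 40.2% and 32.0%. After median-ratio scaling Snrpc alone of the 4 was higher by adjusted p (26.6% of all tested genes). Snrpc, the U1 protein that helps recognise the start of an intron, was at 18.0, 18.7 and 19.4 FPKM in Control and 22.9, 24.8 and 25.3 FPKM in Tip60 cKO. No value was shared between the groups, and it rose 1.31-fold (log2 change 0.37 ± 0.0336, SE, limma adjusted p = 3.39e-07). Near-identical copies of its transcript lie at 3 further loci of the mouse annotation, so its reads could be split or shared among them.

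Sf3b5, a small subunit of the SF3B complex by which the U2 snRNP holds the branch point, had 30.1, 32.6 and 36.6 FPKM in Control and 39.2, 41.9 and 48.7 FPKM in Tip60 cKO. It rose without overlap, by 0.35 ± 0.0597 on the log2 scale (SE, limma adjusted p = 0.000153). Its U2 partner Sf3a1 was at 11.5 ± 0.556 and 12.3 ± 0.637 FPKM (adjusted p = 0.0836 by limma), and its difference turned negative after median-ratio scaling.

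Snrpd2, Snrpe and Snrpf belong to the Sm ring, the protein core on which spliceosomal snRNPs are assembled. Snrpd2, the most abundant splicing member, was at 106, 112 and 119 FPKM in Control and at 121, 127 and 132 FPKM in Tip60 cKO, so that the groups did not overlap although the means differed only 1.14-fold (log2 change 0.19 ± 0.0343, SE, limma adjusted p = 0.000288). Snrpe, at 39.4 ± 2.91 and 46.1 ± 4.24 FPKM, and Snrpf, at 11.7 ± 0.953 and 13.8 ± 0.762 FPKM, both had a log2 change of 0.22 and overlapped between the groups. After median-ratio scaling the limma adjusted p was 0.118 for Snrpd2, 0.141 for Snrpe and 0.0628 for Snrpf. Lsm5, of the related ring on U6 RNA, was at 8.35 ± 0.507 and 9.51 ± 0.733 FPKM and passed by adjusted p alone (0.0110).

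Lsm10 and Lsm11 serve another process, the end cleavage of histone messages by the U7 snRNP. Neither passed: Lsm10 was at 5.65 ± 0.550 and 5.77 ± 0.381 FPKM and Lsm11 at 5.62 ± 0.866 and 5.23 ± 0.778 FPKM. The sign of the Lsm10 difference changed under both other scalings.

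The 3 Prpf proteins, which sit in the U5 and tri-snRNP heart of the spliceosome or act on it, had negative differences under each scaling, and 2 of them passed by adjusted p alone. Prpf8, the large U5 protein at the catalytic centre, was at 29.0, 32.0 and 32.6 FPKM in Control and 27.0, 29.1 and 29.6 FPKM in Tip60 cKO. The groups overlapped through Control library 3, the lowest of its group, and the mean was 8.58% lower (log2 change -0.12 ± 0.0360, SE, limma adjusted p = 0.00847), inside the fold limit. Prpf19, a ubiquitin ligase that activates the spliceosome, was at 23.2 ± 1.09 and 21.3 ± 0.613 FPKM (adjusted p = 0.0107 by limma), and Prpf6, which bridges U5 to the tri-snRNP, at 17.5 ± 0.965 and 16.6 ± 0.515 FPKM (0.121).

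Without further scaling none of 4 hnRNP genes, whose products coat nascent transcripts and tune splice site choice, passed the test. Of all tested genes 40.2% were higher and 14.4% lower by adjusted p alone. Hnrnpd, also called AUF1, was at 15.1, 15.6 and 36.8 FPKM in Control and 17.6, 19.1 and 38.1 FPKM in Tip60 cKO. Both highest values came from the libraries numbered 6. With all libraries the log2 change was 0.21 ± 0.247 (SE, limma adjusted p = 0.492), and without both of them, a choice made after seeing the data, it was 0.25 (0.000166), inside the fold limit. The numbers are names given in record order, and no batch is labelled.

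The other 3 hnRNP genes overlapped between the groups. Hnrnpa0 was at 32.7 ± 2.90 and 34.3 ± 2.25 FPKM, Hnrnph2 at 43.6 ± 2.49 and 45.2 ± 1.95 FPKM, and Hnrnpul2 at 38.2 ± 1.62 and 36.5 ± 1.17 FPKM. The first 2 differences turned negative under both other scalings. Hnrnpul2 was lower by adjusted p alone under both, inside the fold limit. Its log2 change was -0.182 after median-ratio and -0.138 after upper-quartile scaling (limma adjusted p = 4.84e-05 and 0.000206).

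All 3 tested Rbm genes rose, against 19.9% of all tested genes, although their products act in different places. Rbm19, which works in the nucleolus on ribosomal RNA, was at 3.15, 3.34 and 3.8 FPKM in Control and 4.66, 4.88 and 5.23 FPKM in Tip60 cKO, a log2 difference of 0.43 ± 0.0457 (SE, limma adjusted p = 1.50e-06). Rbm38, a p53 target gene whose product binds and regulates messages such as that of p21, lay at 0.665, 0.801 and 0.932 FPKM in Control and 1.14, 1.43 and 1.55 FPKM in Tip60 cKO. It rose 1.75-fold (log2 change 0.41, limma adjusted p = 1.18e-05) and is named outside the rule for named genes because of its low level. In both genes the lowest Tip60 cKO library was above the highest Control library.

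Rbm8a, whose product Y14 marks spliced exon junctions, rose from 12.9 ± 0.786 to 16.3 ± 0.470 FPKM (SD, n = 6 each), or 0.32 on the log2 scale (limma adjusted p = 1.05e-05). Under median-ratio and upper-quartile scaling it was 0.20 and 0.25, inside the fold limit. The other proteins of this exon junction complex moved less: Magoh, the partner of Y14 and no member by symbol, was at 20.1 ± 1.01 and 23.1 ± 1.29 FPKM (adjusted p = 0.00170 by limma), and Eif4a3, the helicase that anchors the complex on RNA and has the symbol of a translation factor, was at 25.4 ± 1.05 and 25.8 ± 0.983 FPKM. The Eif4a3 difference turned negative under both other scalings.

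Of 4 tested RNA helicases 2 rose, against 19.9% of all tested genes. Ddx59, a helicase whose mutation in humans causes an orofaciodigital syndrome, was at 2.72, 3.17 and 3.69 FPKM in Control and 4.61, 5.37 and 5.90 FPKM in Tip60 cKO (log2 change 0.59 ± 0.0661, SE, limma adjusted p = 2.74e-06). Ddx18, the counterpart of a yeast helicase of large ribosomal subunit assembly, had 6.42, 7.03 and 7.36 FPKM in Control and 9.37, 9.97 and 11.0 FPKM in Tip60 cKO (log2 change 0.47 ± 0.0421, SE, limma adjusted p = 2.97e-07). Both kept groups that did not overlap and both rose under every alternative tried.

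The other helicases did not pass without further scaling. Ddx42, a helicase associated with the U2 snRNP and the most abundant of the 4, was at 16.9, 19.4 and 20.3 FPKM in Control and 17.0, 18.0 and 19.2 FPKM in Tip60 cKO (log2 change -0.07 ± 0.0436, SE, limma adjusted p = 0.189). After median-ratio and upper-quartile scaling Ddx42 was lower by adjusted p alone, as were 25.9% and 21.7% of all tested genes. Its log2 change was then -0.185 and -0.141 (limma adjusted p = 0.000216 and 0.000713), inside the fold limit. Dhx58 encodes LGP2, a sensor of viral RNA and no part of gene expression. It lay at 0.362 to 0.924 FPKM in Control and 0.470 to 0.895 FPKM in Tip60 cKO, with overlap.

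The 4 tested genes of ribosomal RNA processing moved by less than the fold limit. Utp6 and Utp3, of the small subunit processome, were at 10.3 ± 0.724 and 12.1 ± 0.469 FPKM and at 12.2 ± 0.455 and 13.7 ± 0.926 FPKM. Nop2, a methyltransferase of ribosomal RNA, was at 7.74 ± 0.477 and 9.01 ± 0.263 FPKM. The groups did not overlap in these 3 genes, and the adjusted p by limma was 0.000770, 0.00667 and 0.000810. Over all tested genes 25.2% lay above every Control value in this way, and 40.2% were higher by adjusted p. After median-ratio scaling 1 of the 4 was higher by adjusted p, and after upper-quartile scaling 2 (26.6% and 32.0% of all tested genes). Nop2 was at 0.0892 on the log2 scale after median-ratio scaling (limma adjusted p = 0.0816).

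Nop10, a small protein of the particles that guide pseudouridine formation and the most abundant of the 4, was at 28.4, 32.6 and 33.4 FPKM in Control and 30.4, 32.9 and 35.7 FPKM in Tip60 cKO. The groups overlapped (log2 change 0.05 ± 0.0457, SE, limma adjusted p = 0.338), and the difference turned negative under both other scalings.

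Of 13 tested translation factors 1 rose (7.69%, against 19.9% of all tested genes). By adjusted p alone 6 were higher and none lower, against 40.2% and 14.4% of all tested genes. The median change was 0.14. The count of rises was sensitive to single libraries, with 2 when Control library 4 or 5 or Tip60 cKO library 1 or 5 was left out and 3 without Tip60 cKO library 3. Under both other scalings it was 0. By adjusted p alone 3 were higher and 5 lower after median-ratio scaling (26.6% and 25.9% of all tested genes). After upper-quartile scaling 6 were higher and 1 lower (32.0% and 21.7%).

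The member that rose belongs to eIF2B, the exchange factor that recharges eIF2 with GTP and is the target of the integrated stress response. Eif2b1, its alpha subunit, was at 8.05, 9.39 and 9.70 FPKM in Control and 11.0, 11.8 and 12.1 FPKM in Tip60 cKO. No values overlapped, and the log2 change was 0.32 ± 0.0426 (SE, limma adjusted p = 1.53e-05). Eif2b5, the catalytic epsilon subunit, was at 15.1, 16 and 17.0 FPKM in Control and 18.6, 19.1 and 20.5 FPKM in Tip60 cKO, also without overlap, and its log2 change of 0.26 (adjusted p = 2.39e-05 by limma) stopped just inside the fold limit.

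Subunits of eIF2 itself, which carries the initiator transfer RNA, differed little. Eif2s2 was at 20.5 ± 0.707 and 21.3 ± 0.672 FPKM and Eif2s3x at 25.5 ± 1.26 and 25.5 ± 0.676 FPKM. For Eif2s3x the log2 difference was near 0, with an interval from -0.08 to 0.07. After median-ratio and upper-quartile scaling Eif2s3x was lower by adjusted p alone, at -0.119 and -0.0753 (limma adjusted p = 0.00328 and 0.0248). The Eif2s2 difference was negative under both other scalings.

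Of 4 subunits of eIF3, the scaffold that joins message and small ribosomal subunit, Eif3b alone was higher by adjusted p, at 24.8 ± 1.10 and 28.2 ± 0.733 FPKM without overlap (log2 change 0.18, limma adjusted p = 0.000471). Eif3a was at 31.3 ± 1.2 and 32.3 ± 0.966 FPKM, Eif3f at 46.8 ± 2.98 and 46.2 ± 2.78 FPKM, and Eif3g at 39.3 ± 2.12 and 39.4 ± 2.41 FPKM. The 3 intervals lay between -0.12 and 0.11 on the log2 scale. Differences of Eif3a and Eif3g were negative under both other scalings. After median-ratio scaling Eif3b was no longer higher by adjusted p (0.131, limma), and Eif3a, Eif3f and Eif3g were lower by adjusted p alone (0.0426, 0.00821 and 0.0148).

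Eif1, which guards the choice of the start codon and was the most abundant member of all, was at 158, 170 and 176 FPKM in Control and 176, 189 and 192 FPKM in Tip60 cKO. The groups touched only through Tip60 cKO library 3, and the log2 change was 0.15 ± 0.0324 (SE, limma adjusted p = 0.00121), inside the fold limit. After median-ratio scaling it was 0.0289 and did not pass (limma adjusted p = 0.305). The Eif1 transcript has near-identical copies at 13 other loci, more than any other member.

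Eef1b2, which recharges the elongation factor that delivers transfer RNAs, was at 46.8, 49.2 and 53.6 FPKM in Control and 57.0, 59.8 and 60.7 FPKM in Tip60 cKO. The groups did not overlap, and the log2 change was 0.25 ± 0.0335 (SE, limma adjusted p = 1.65e-05), just short of the limit. Eif6, which keeps large ribosomal subunits from joining too early, was at 16.6 ± 0.768 and 19.4 ± 0.991 FPKM without overlap. After median-ratio scaling its log2 change was 0.0963 and did not pass (limma adjusted p = 0.0605). Eif4ebp1, a repressor of cap-dependent initiation rather than a factor of it, was at 1.34 ± 0.192 and 1.58 ± 0.253 FPKM (adjusted p = 0.110 by limma).

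Averaged over the members of each step, the libraries of the 2 genotypes were set side by side. Relative to the Control mean, the mean log2 level of the transcription machinery was at -0.11 to 0.03 in Control and 0.24 to 0.32 in Tip60 cKO libraries. For translation factors it was at -0.09 to 0.04 and 0.07 to 0.16, and for splicing factors at -0.09 to 0.12 and 0.03 to 0.19, the only step whose groups overlapped. That overlap rested on Control library 6, 1 of the 2 with high Hnrnpd, and the next Control value was 0.02. The Rbm proteins were at -0.06 to 0.09 and 0.36 to 0.45, the helicases at -0.09 to 0.04 and 0.19 to 0.38, and the genes of ribosomal RNA processing at -0.10 to 0.05 and 0.12 to 0.19. Over all tested genes the levels were -0.05 to 0.03 and 0.05 to 0.13. Differences between steps were not tested.

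**Figure D3:**
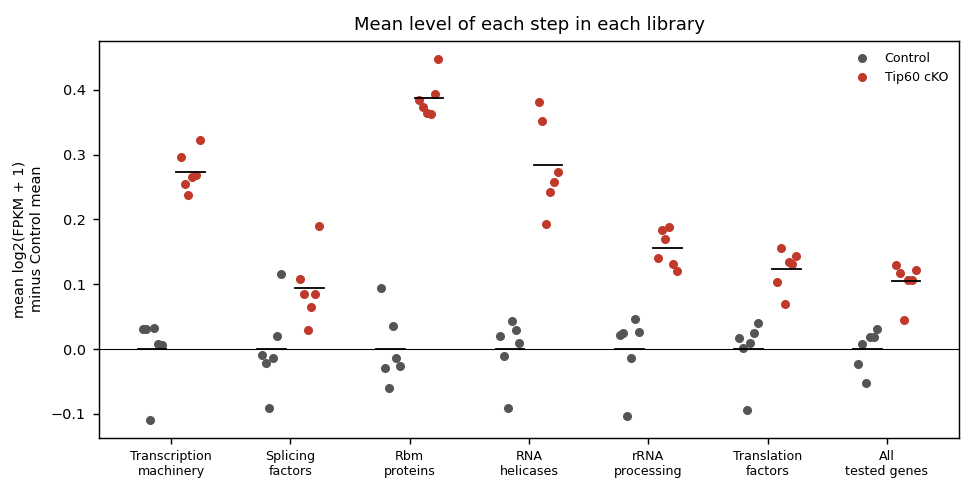
Mean log2(FPKM + 1) of the tested members of each step in each library, minus the Control mean, with Control in grey, Tip60 cKO in red and a black line at the group mean. Transcription machinery lies at 0.24 to 0.32 in Tip60 cKO, all tested genes at 0.05 to 0.13, and only the splicing factors overlap between genotypes, through Control library 6 at 0.12.

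The 8 members under 0.5 FPKM were not tested. Rbm31y and Taf1a were listed at 0 in every library. Ddx43, a helicase known from testis and tumours, was at 0.0403, 0.0846 and 0.0998 FPKM in Control and 0.180, 0.206 and 0.664 FPKM in Tip60 cKO, with no overlap. Without a filter on low values its log2 change was 0.24 (limma adjusted p = 0.0339), inside the fold limit.

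The remaining low members overlapped between the groups. Ddx60, an interferon-induced helicase, lay at 0.108 to 0.239 FPKM in Control and 0.150 to 0.253 FPKM in Tip60 cKO. Gtf2a1l, a germ cell form of TFIIA, stayed at or under 0.132 FPKM, Eif4e1b, an oocyte form of the cap-binding protein, at or under 0.0813 FPKM, Rbm47 at or under 0.0790 FPKM and Rbm44 at or under 0.0363 FPKM. At such levels each value rests on few reads.

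Genes of the same processes whose symbols fall outside the prefixes were examined from lists of known components. In each list most genes had no values in these data, so their level is not known here. Of 80 listed transcription genes 8 had values and all 8 were tested: 3 rose, 5 were higher by adjusted p alone and none fell. With 19.9% of all tested genes rising, the shares here and in the lists that follow were 37.5%, 14.3%, 25.0% and 20.0%. By adjusted p alone 40.2% of all tested genes were higher and 14.4% lower. The 3 were Larp7, from 6.91 ± 0.288 to 15.1 ± 0.840 FPKM, Hexim1, from 13.2 ± 0.927 to 21.1 ± 0.933 FPKM, and Ints12, from 2.49 ± 0.139 to 3.33 ± 0.227 FPKM (SD, n = 6 each). Larp7 and Hexim1 are proteins of the 7SK particle, which holds the elongation kinase P-TEFb inactive, and Ints12 is a subunit of Integrator, which cleaves nascent RNA at small nuclear RNA genes. Their log2 changes were 1.02, 0.64 and 0.31 (limma adjusted p = 7.54e-11, 2.71e-08 and 5.46e-05).

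Of 103 listed splicing genes 14 had values and were tested. Of these 2 rose, none fell, and 9 were higher and 1 lower by adjusted p alone. Snrnp25, of the minor spliceosome that removes a rare class of introns, rose from 11.1 ± 0.869 to 18.0 ± 1.91 FPKM, and Ppil1, a prolyl isomerase of the spliceosome, from 7.66 ± 0.399 to 10.9 ± 0.882 FPKM (SD, n = 6 each). Changes on the log2 scale were 0.65 for Snrnp25 and 0.45 for Ppil1. Rbmxl1, the 1 lower gene, was at 16.6 ± 0.578 and 15.3 ± 1.04 FPKM.

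Of 51 listed translation genes 12 had values and were tested, and 3 rose. Pabpc1, the cytoplasmic poly(A)-binding protein, rose from 37.6 ± 1.86 to 50.3 ± 1.76 FPKM, Paip2b, which inhibits it, from 14.5 ± 0.768 to 18.0 ± 0.853 FPKM, and Wars, the tryptophan transfer RNA synthetase, from 26.8 ± 1.29 to 32.6 ± 1.07 FPKM (SD, n = 6 each). By adjusted p 7 of the 12 were higher and none lower.

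Of 88 listed genes of ribosomal RNA processing and RNA decay 11 had values and 10 were tested. Here 9 were higher by adjusted p and 2 rose, Nhp2, a partner of Nop10, from 21.8 ± 0.787 to 27.4 ± 0.750 FPKM and Rrs1, an assembly factor of the large ribosomal subunit, from 7.52 ± 0.419 to 9.49 ± 0.531 FPKM. The median changes of the 4 lists were 0.17, 0.18, 0.16 and 0.19, against 0.09 over all tested genes.

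The scaling mattered for these lists too. After median-ratio scaling 2, 2, 1 and 0 genes rose (transcription, splicing, translation, and ribosomal RNA processing and decay), 3, 4, 3 and 4 were higher by adjusted p alone, and 1, 3, 2 and 0 were lower. After upper-quartile scaling 2, 2, 1 and 0 rose, 4, 8, 4 and 7 were higher by adjusted p alone, and 0, 3, 1 and 0 were lower.

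Transcript length moved with the change. Across the 59 tested members Spearman's rho of length (median of the coding transcripts in the GENCODE annotation) with log2 change was -0.37 and across 2084 tested genes with a length it was -0.08; genes share libraries and are no independent replicates. Of 26 members of at most 1461 bases 11 rose (42.3%, against 24.0% of all tested genes of that length), of 20 members of middle length 5 rose (25.0% against 20.0%), and of 13 members over 2833 bases 2 rose (15.4% against 17.0%). The longest member was Prpf8 at 7249 bases, and the part of length in the results was not tested.

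**Figure D4:**
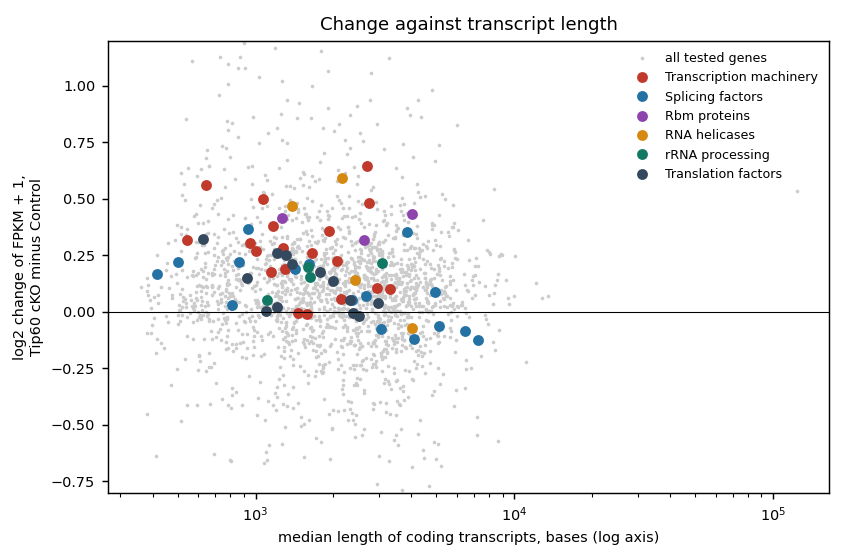
Log2 change of FPKM + 1 against the median length of the coding transcripts (log axis) for 2084 tested genes in grey and the 59 tested members coloured by step; 13 grey points lie outside the plotted range. Members under 1461 bases have a median change of 0.24 and those over 2833 bases of 0.04.

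A promoter window of 250 bases was at hand for 48 tested members, 13 of the 18 that rose and 35 others. The E2F letters TTTCCCGC, searched like all motifs on both strands, were in 2 of the 13 (Med6 and Med9), in none of the 35, in 1.26% of 1667 tested genes and in 0.929% of all 27025 genes with a window. The ETS letters CCGGAAG were in 4 of the 13 (Polr2j, Rbm19, Snrpc and Taf3) and 8 of the 35, or 30.8% and 22.9%, and in 11.0% of tested genes. CCAAT was in 38.5% and 42.9% of the members against 37.9% of tested genes, and the E-box CACGTG in 7.69% and 8.57% against 7.98%.

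The TATA letters TATAAA were in none of the 13 and 3 of the 35, and in 7.08% of tested genes, while neither the NRF1 motif nor the YY1 letters AAGATGGC were in any member window. The median GC content was 55.6% in members that rose, 56.4% in the other members and 59.6% over tested genes. None of these motifs contains another, and a match of letters is a description of the sequence.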

How the data were processed

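Total RNA of dorsal CA1 from 6 Control and 6 Tip60 cKO mice was sequenced as 1 library per mouse. The authors deposited FPKM values in 1 table, scaled per transcript length and depth and not counts. Tools listed in the submitters' processing notes are TopHat2 2.0.8, CASAVA 1.8.2, bedtools 2.16.2 and FastQC 0.10.0, with the mm9 build. The program of the FPKM step: not given in the sources used here. A count model had been planned, and the log-scale test was used because the values are FPKM.

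Of 10383 rows 100 were exact repeats and were dropped, and rows of one symbol were summed (10245 symbols). Small RNA genes (533), genes at 0 throughout (2413) and 42 genes with isolated zeros were set aside, and 2416 of the remaining 7257 reached a mean of 0.5 FPKM. Limma 3.58.1 (R 4.3.3) was run on log2(FPKM + 1), 6 against 6, with a mean-dependent prior, robust estimates and Benjamini-Hochberg adjustment. The script was tested on simulated data. Depth was estimated from the lowest values, which pile up at the level of 1 read among genes with 1 annotated transcript. Such low values carry the most counting error.

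Members and gene lists were chosen with earlier results of these data known. By rule, up to 4 members of each step with the largest rise or fall and a mean of at least 2 FPKM, and the most abundant of each step, were described in full; the remaining members were named to account for all. Alternatives were other scalings, pseudocounts, filters, row handling, variance models and left-out libraries. Transcript copies were searched with BLAST 2.17.0 (at least 95% identity over 200 bases, 17 tested members), and 15 tested members share exon bases with another gene. Among members that rose, Ddx18, Polr2k, Rbm8a and Snrpc had such copies. Ddx59, Med29, Polr2j, Rbm19, Rbm38 and Taf3 overlap a gene on the other strand, so their reads there cannot be told apart. Sequences are from RefSeq (GRCm38.p6). No comparison columns were used, and 0 per-sample columns were left unmapped. Replicates are separate mice per the labels.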

Additional observations from a re-analysis of the deposited data

Results flagged for a closer look

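In 17 of the 118 groups of 6 values of the tested members (14.4%) the highest or lowest library lay far from the other 5, by Dixon's criterion at the 95% level. Chance flags about 1 in 20 groups, and over all tested genes 8.61% of groups were marked. Control library 3 accounted for 103 of the 416 marks over all genes and for 5 of the members listed here.

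In Control library 3, Eif2b1 was low at 8.048 FPKM, Gtf2b at 15.58 FPKM, Hnrnpul2 at 35.09 FPKM, Nop10 at 28.37 FPKM and Prpf19 at 21.16 FPKM. The other Control values that stood apart were Dhx58 in library 4 (0.9237 FPKM, high), Hnrnpd in library 6 (36.77 FPKM, high), Med29 in library 2 (5.826 FPKM, high) and Polr2l in library 5 (15.97 FPKM, high).

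In Tip60 cKO library 6, Hnrnpd at 38.14 FPKM and Polr2j at 105.3 FPKM were high and Eif2b1 at 11.01 FPKM was low. In library 3, Eif1 at 175.6 FPKM and Polr1d at 53.52 FPKM were low and Med18 at 1.993 FPKM was high. Med6 was high in library 1 (17.82 FPKM) and Utp3 in library 2 (15.46 FPKM).

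Among tested genes with a mean over 5 FPKM in both groups, 27 values were more than 1.5 times the next highest of their group, 11 of them in Control library 3. The ratio was 2.32 and 1.98 for Hnrnpd in the libraries numbered 6 and 2.03 for Polr2j. The cause was not tested.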

How the results depend on the processing

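No member fell past the fold limit under any alternative. The count of 18 rises was 8 after median-ratio scaling, 12 after upper-quartile scaling and 21 with a pseudocount of 0.1, and 17 to 20 when 1 library was left out. For the transcription machinery 10 became 4 (median-ratio) and 6 (upper-quartile), and 9 to 11 with 1 library left out. For splicing factors 2 became 0 (median-ratio). For translation factors 1 became 0 under both scalings and 2 with a pseudocount of 0.1, and it was 1 to 3 with 1 library left out. The other counts stayed within 1.5 times. Filters, variance model and row handling changed no call of a member that was tested under them. No paired analysis was possible because the numbers of the libraries were given in record order, and no label pairs a Control with a Tip60 cKO mouse.

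Calls of Eif2b1, Med29, Med30, Med6, Polr2k and Rbm8a were lost under both scalings and those of Med9, Polr1d, Sf3b5 and Snrpc under median-ratio scaling only; the cause was not tested. Differences that changed sign were small. After median-ratio and upper-quartile scaling they were -0.064 and -0.0206 (Eif2s2), -0.0761 and -0.032 (Eif3a), -0.115 and -0.0706 (Eif3g), -0.0966 and -0.0528 (Eif4a3), -0.0471 and -0.00292 (Hnrnpa0), -0.0671 and -0.0226 (Hnrnph2), -0.074 and -0.0352 (Lsm10), -0.0632 and -0.019 (Nop10), -0.0603 and -0.0158 (Polr2m), and for median-ratio scaling alone -0.00663 (Polr3k) and -0.0235 (Sf3a1). Without both libraries numbered 6, an alternative chosen after seeing the data, Eif2s3x was at 0.00768, Eif3g at -0.00914 and Gtf2b at 0.0123, and 17 members rose, Polr2k (0.262) no longer among them. With 1 library left out, Eif2s3x ranged from -0.0284 to 0.0111, Eif3f from -0.0416 to 0.00591, Eif3g from -0.0191 to 0.0345 and Gtf2b from -0.0454 to 0.0119.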
